A study of Homo sapiens with 2 samples.

Results

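HLA class I molecules carry short peptides from inside the cell to its surface, where CD8+ T cells and natural killer cells read them. Each molecule joins a heavy chain, highly polymorphic in the classical molecules, to the invariant light chain β2-microglobulin. The peptides are cut by the proteasome, pumped into the endoplasmic reticulum by the transporter of TAP1 and TAP2 and loaded onto the heavy chain with the help of tapasin, the product of TAPBP. NLRC5 is a regulator that acts at the promoters of many of these genes, and interferons raise their transcription in most tissues, the liver included. The members described here are the genes HLA-B, HLA-C, HLA-E, HLA-F, B2M, TAP1, TAP2, TAPBP and NLRC5. They were found by their symbols, and they are 9 of the 16220 gene symbols with deposited values.

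The study asked which signals M2BPGi, a glycan isomer of Mac-2-binding protein that serves as a serum marker of liver fibrosis, changes in hepatocellular carcinoma cells. PLC/PRF/5, an established human hepatoma cell line, was either non-treated (0 µg/ml) or treated with 3 µg/ml M2BPGi for 6 h. Cap analysis of gene expression (CAGE) was made from total RNA, with 1 library per condition. CAGE reads short tags at the capped 5′ end of RNAs, and a transcript therefore gives 1 tag whatever its length and levels can be set side by side between genes.

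Values are tags scaled to the size of the library (CPM). The non-treated library held 24040210 tags and the M2BPGi-treated library 24862943, as read back from the CPM. Log2 ratios (M2BPGi-treated over non-treated) were taken after adding 1 CPM to each value, which understates the change of low genes. Intervals are 95% Clopper-Pearson intervals of the log2 ratio of the tags without this addition. They cover counting error only, and no difference has a replicate check. In a bulk library, fewer cells that express a gene and less RNA per cell cannot be told apart.

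All 9 antigen presentation genes had lower CPM in M2BPGi-treated than in non-treated cells, and 57.0% of the 13724 genes at a mean of 1 CPM or more had a log2 ratio below 0. The median log2 ratio of the 9 genes was -0.34, and that of the 13724 genes was -0.05. None of the 9 was at least 2-fold lower, a size that 0.43% of all genes reached. TAP2 and NLRC5 were at least 1.5-fold lower, as were 4.04% of all genes. With 5 CPM added in place of 1 CPM, NLRC5 had a log2 ratio of -0.28 and did not reach 1.5-fold. The counting interval lay below 0 for 9 of 9 members and for 31.5% of all genes, and above 0 for 0 members and for 22.8% of all genes. Their levels spanned a wide range, from B2M at the top to NLRC5 at the bottom. With TAP2 counted by a single identifier, as set out below, TAP2 and HLA-B were the only members to change places in this order between the libraries.

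**Figure D1:**
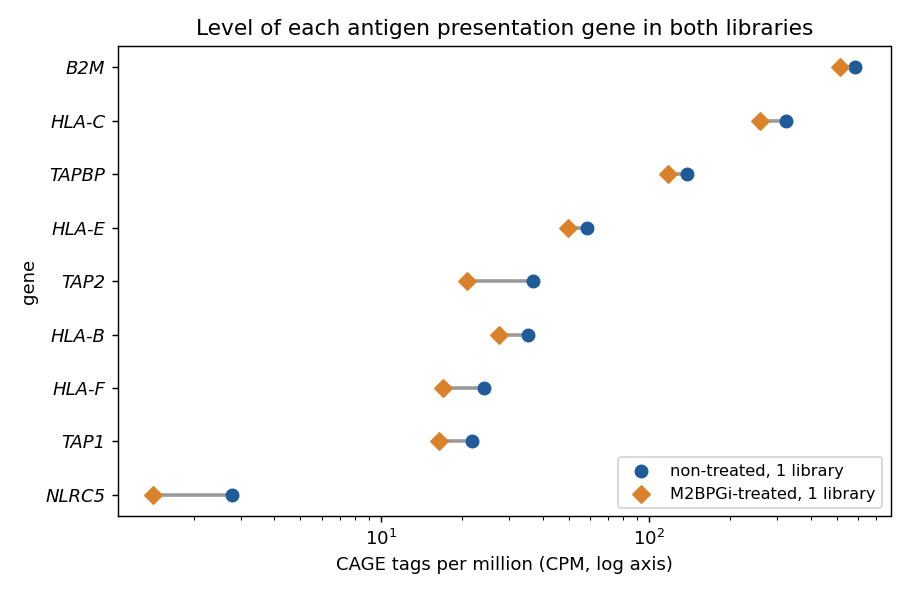
CPM of each antigen presentation gene on a log axis, with a circle for the non-treated library and a diamond for the M2BPGi-treated library (1 library each). The diamond lies left of the circle for all 9 genes, and the longest lines on this axis belong to NLRC5 (2.79 and 1.41 CPM) and TAP2 (36.9 and 20.9 CPM).

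The classical heavy chains HLA-B and HLA-C present peptides to T cells, and HLA-C is also read by receptors of natural killer cells. HLA-C (ENSG00000204525, chromosome 6) was the most abundant heavy chain member, with 324 CPM without and 258 CPM with M2BPGi. With 1 CPM added to each value, its level was 1.25-fold lower after treatment, a log2 ratio of -0.33 (interval -0.38 to -0.28). HLA-B (ENSG00000234745, chromosome 6) had 35.2 CPM without and 27.6 CPM with M2BPGi. Its log2 ratio was -0.34 (interval -0.50 to -0.20), so the classical pair differed widely in level and little in ratio. There were 0.108 tags of HLA-B per tag of HLA-C in non-treated cells (interval 0.101 to 0.116) and 0.107 in M2BPGi-treated cells (interval 0.0985 to 0.116). These intervals overlapped.

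The heavy chains HLA-E and HLA-F vary little between people. HLA-E shows leader peptides of other class I chains to the NKG2A receptor of natural killer cells, and HLA-F is known for binding receptors of these cells as well. HLA-E (ENSG00000204592, chromosome 6) had 58.3 CPM without and 49.8 CPM with M2BPGi, a log2 ratio of -0.22 (interval -0.34 to -0.12). HLA-F (ENSG00000204642, chromosome 6) had 24.2 and 16.9 CPM in the same order. It had the lowest ratio of the 4 heavy chains, -0.49 (interval -0.70 to -0.33), and 7.02% of the 13724 genes had a lower one. The intervals of HLA-E and HLA-F touched only near their ends, while that of HLA-C lay inside that of HLA-B.

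The light chain is shared by every class I molecule and by several class I-like proteins. B2M (ENSG00000166710, chromosome 15) was the most abundant member, with 586 CPM without and 513 CPM with M2BPGi. Of all genes, 98.4% had a lower level in non-treated cells. Its log2 ratio of -0.19 (interval -0.23 to -0.16) was the one nearest 0 among the members, and 31.8% of all genes had a lower ratio. The interval of B2M did not overlap that of HLA-C, for which the log2 ratio was further below 0. Among all genes, those nearest to B2M in their levels in both libraries were C3 (614 and 493 CPM), a complement component made by hepatocytes, and IFI6 (581 and 547 CPM), an interferon-stimulated gene. Those nearest to HLA-C were PIGT (334 and 268 CPM), which helps to attach lipid anchors to proteins, VCP (328 and 271 CPM), which pulls misfolded proteins out of the endoplasmic reticulum, and a gene listed as MIR639 (328 and 265 CPM). This is a likeness of level over 2 libraries.

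TAP1 and TAP2 form the heterodimer that moves peptides across the membrane of the endoplasmic reticulum. TAP1 (ENSG00000168394, chromosome 6) had 21.8 CPM without and 16.4 CPM with M2BPGi, a log2 ratio of -0.39 (interval -0.60 to -0.22). TAP2 (ENSG00000204267, chromosome 6) had 36.9 and 20.9 CPM. With 1 CPM added to each value, it was 1.72-fold lower after treatment. Its log2 ratio of -0.79 (interval -0.97 to -0.66) was the lowest of the 9 members with 1 CPM added, and 1.34% of all genes had a lower one. For the tags alone TAP2 had -0.81 and NLRC5 was lower with -0.99. The intervals of the subunits did not overlap. There were 0.593 tags of TAP1 per tag of TAP2 in non-treated cells (interval 0.531 to 0.661) and 0.785 in M2BPGi-treated cells (interval 0.688 to 0.895), and these intervals did not overlap.

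A further identifier carries the symbol TAP2 in the deposited values, ENSG00000250264. In the GENCODE v29 annotation it is a longer locus on the same strand that holds the whole of TAP2, with 100% identity over the first 500 nt of a TAP2 transcript. It had 35.2 CPM without and 20.7 CPM with M2BPGi, a log2 ratio of -0.74. Tags of one locus can fall on the other, so TAP2 was counted once, by the first identifier, and the tags of the other were set aside. With the tags of both identifiers summed, where a tag listed under each would enter again, there were 0.303 tags of TAP1 per tag of TAP2 in non-treated cells (interval 0.275 to 0.335) and 0.395 in M2BPGi-treated cells (interval 0.352 to 0.443).

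Tapasin bridges the transporter to the empty heavy chain and edits the peptides that stay bound. TAPBP (ENSG00000231925, chromosome 6) had 138 CPM without and 118 CPM with M2BPGi. Its log2 ratio of -0.23 (interval -0.30 to -0.16) was close to that of HLA-E and B2M. NLRC5 (ENSG00000140853, chromosome 16), the regulator, was the least abundant member with 2.79 CPM (67 tags) without and 1.41 CPM (35 tags) with M2BPGi. The log2 ratio was -0.65 with the addition of 1 CPM and -0.99 for the tags alone, with a wide interval of -1.62 to -0.37. It was the widest interval of the 9 members, since NLRC5 had the fewest tags.

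**Figure D2:**
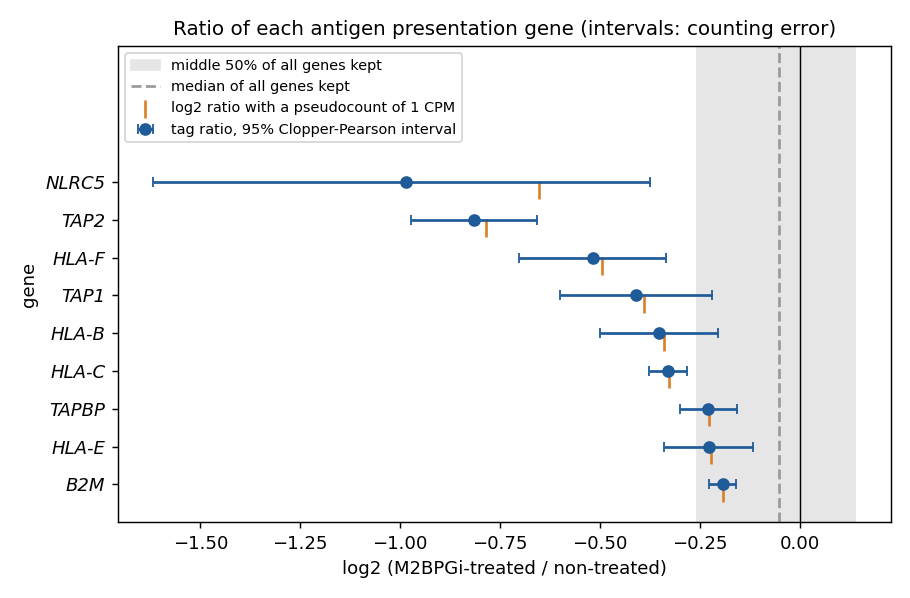
Log2 ratio (M2BPGi-treated over non-treated) of each member, with circles and bars for the tag ratio and its 95% Clopper-Pearson interval and orange ticks for the ratio with 1 CPM added. The grey band and the dashed line give the middle 50% and the median (-0.05) of the 13724 genes; all 9 bars end below 0, and those of B2M and HLA-C are the shortest.

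Set among all genes, the members lay below the median, with 31.8% of genes lower than B2M, 2.73% lower than NLRC5 and 1.34% lower than TAP2. The quartiles of the 13724 genes were -0.26 and 0.14, and HLA-B, HLA-C, HLA-F, TAP1, TAP2 and NLRC5 lay below the lower one. HLA-E, TAPBP and B2M lay between the lower quartile and the median. At the 2-fold threshold, 59 genes of the whole set were lower and 33 were higher.

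**Figure D3:**
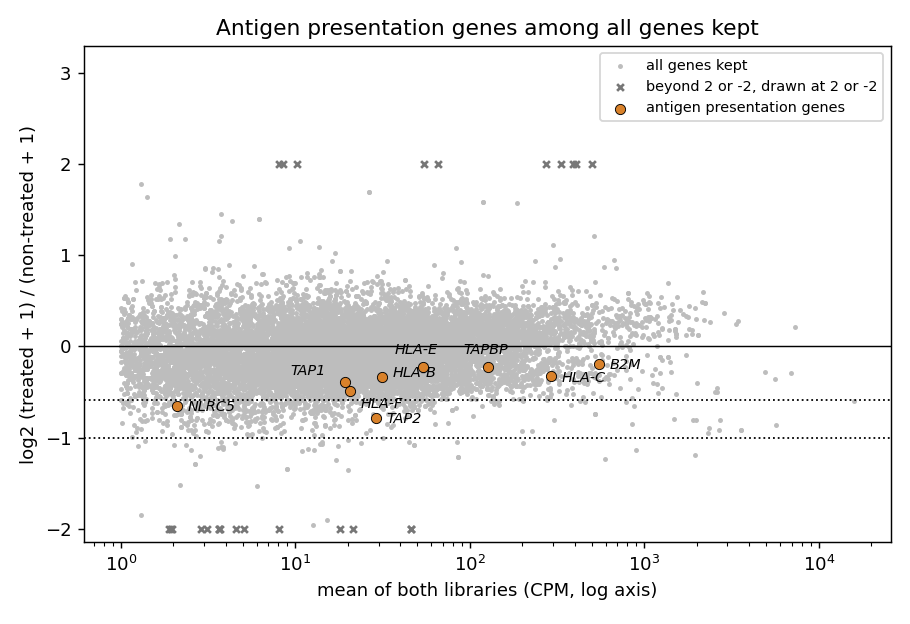
Log2 ratio with 1 CPM added against the mean CPM of both libraries (log axis), with a grey point for each of the 13724 genes and an orange point for each member. Dotted lines mark 1.5-fold and 2-fold lower, and crosses at 2 and -2 stand for genes beyond these values; TAP2 and NLRC5 lie between the dotted lines and the other 7 members above them.

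Since each CAGE tag marks a start of transcription and the members were lower together, their promoters were read from the RefSeq promoter table (GRCh38.p14), which gives 250 bases before to 50 bases after an annotated start. Of the 9 members, 7 had an entry, TAP1 had 2 entries, and HLA-E and NLRC5 had none. The motifs searched on both strands were the interferon regulatory factor (IRF) motif AANNGAAA, the cyclic AMP response element (CRE) half-site TGACG, the CCAAT box CCAAT and the NF-kB consensus. The HLA-B and HLA-C windows are shown first because they are closely alike and hold all 4 motifs, with the matches in capitals and the annotated start after base 250. HLA-B lies on the minus strand at chr6:31357130-31357429, HLA-C on the minus strand at chr6:31272043-31272342.
HLA-B: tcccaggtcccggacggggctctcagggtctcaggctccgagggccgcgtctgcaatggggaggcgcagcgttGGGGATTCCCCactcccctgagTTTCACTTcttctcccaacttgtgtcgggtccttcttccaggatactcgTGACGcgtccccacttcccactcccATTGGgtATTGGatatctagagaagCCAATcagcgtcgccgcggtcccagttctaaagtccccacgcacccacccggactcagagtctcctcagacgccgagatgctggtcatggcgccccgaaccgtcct
HLA-C: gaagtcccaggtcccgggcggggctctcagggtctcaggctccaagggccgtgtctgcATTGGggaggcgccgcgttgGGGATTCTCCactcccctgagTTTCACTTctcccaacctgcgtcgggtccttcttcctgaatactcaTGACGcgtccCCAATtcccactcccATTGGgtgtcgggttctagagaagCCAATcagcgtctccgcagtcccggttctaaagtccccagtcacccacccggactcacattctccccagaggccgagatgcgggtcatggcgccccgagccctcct

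These windows were 88.5% identical, and 43 of the first 50 bases of the transcript, where CAGE tags begin, were identical. From upstream to downstream, both held an NF-kB match (2 overlapping ones in HLA-B), an IRF match, a CRE half-site and CCAAT boxes. The CCAAT boxes began 81, 74 and 56 bases before the start in HLA-B and 192, 95, 80 and 56 bases before it in HLA-C, so the one at 192 stood upstream of the other motifs. The IRF match began 155 bases before the start in HLA-B and 151 bases before it in HLA-C, and the CRE half-site 106 and 105 bases before it. HLA-F kept the IRF match, 156 bases before its start, and 2 CCAAT boxes, and its window had neither a CRE half-site nor an NF-kB match in these letters.

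B2M is shown next, as the member with the ratio nearest 0, with the transporter genes TAP1 and TAP2, whose intervals did not overlap. B2M lies on the plus strand at chr15:44711267-44711566, TAP1 on the minus strand at chr6:32853655-32853954 and TAP2 on the minus strand at chr6:32838690-32838989.
B2M: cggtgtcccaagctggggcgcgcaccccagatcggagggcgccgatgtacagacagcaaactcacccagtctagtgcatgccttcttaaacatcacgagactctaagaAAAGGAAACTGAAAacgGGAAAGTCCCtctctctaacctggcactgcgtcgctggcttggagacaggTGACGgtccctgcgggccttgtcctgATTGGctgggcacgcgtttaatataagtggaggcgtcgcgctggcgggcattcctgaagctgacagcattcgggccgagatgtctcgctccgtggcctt
TAP1: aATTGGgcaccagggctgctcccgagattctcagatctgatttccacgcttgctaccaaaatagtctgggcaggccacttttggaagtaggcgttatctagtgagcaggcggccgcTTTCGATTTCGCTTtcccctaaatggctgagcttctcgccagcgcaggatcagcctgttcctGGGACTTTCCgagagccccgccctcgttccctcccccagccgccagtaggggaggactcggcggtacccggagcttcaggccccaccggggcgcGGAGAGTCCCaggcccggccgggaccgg
TAP2: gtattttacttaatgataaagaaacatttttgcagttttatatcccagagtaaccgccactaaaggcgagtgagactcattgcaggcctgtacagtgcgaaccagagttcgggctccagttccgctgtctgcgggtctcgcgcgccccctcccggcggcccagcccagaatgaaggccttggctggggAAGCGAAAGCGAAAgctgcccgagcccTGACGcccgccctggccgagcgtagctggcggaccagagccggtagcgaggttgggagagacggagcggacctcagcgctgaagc

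In each of these windows 2 IRF matches overlapped, beginning 142 and 136 bases before the start in B2M, 134 and 128 in TAP1 and 62 and 56 in TAP2. TAPBP also had an overlapping pair, 18 and 12 bases before its start. B2M held all 4 motifs, TAP1 held no CRE half-site and TAP2 held neither a CCAAT box nor an NF-kB match. The other entry of TAP1, at a start further downstream, held none of the 4 motifs.

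An IRF match stood in 7 of the 8 entries of members, and in 22.8% of all 35116 promoters of the table. The CRE half-site stood in 4 of the 8 and in 24.6% of all promoters, the CCAAT box in 5 of the 8 and in 34.6%, and the NF-kB consensus in 5 of the 8 and in 11.3%. The HLA-F window was 79.7% identical to that of HLA-B and 78.9% to that of HLA-C, so the entries are not separate instances. The motifs were also chosen after values were seen. Measured genes, again at a mean of 1 CPM or more, were counted here only if they had an entry. The 1788 genes with an IRF match had a median log2 ratio of -0.05, and so did the 7011 genes without one. With an NF-kB match the median was -0.06 over 1503 genes, and without one it was -0.04 over 7296 genes. The medians were -0.06 with a CCAAT box (3849 genes) and -0.03 without one (4950 genes). With a CRE half-site the median was -0.04 over 3643 genes, and without one it was -0.05 over 5156 genes. A measured gene counted as having a motif if any of its entries held a match, while the percents of all promoters are of single entries. These gene numbers therefore cannot be set against those percents. These matches describe the letters of the reference and not the binding of a factor, and the start that the cells used was not analysed here.

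**Figure D4:**
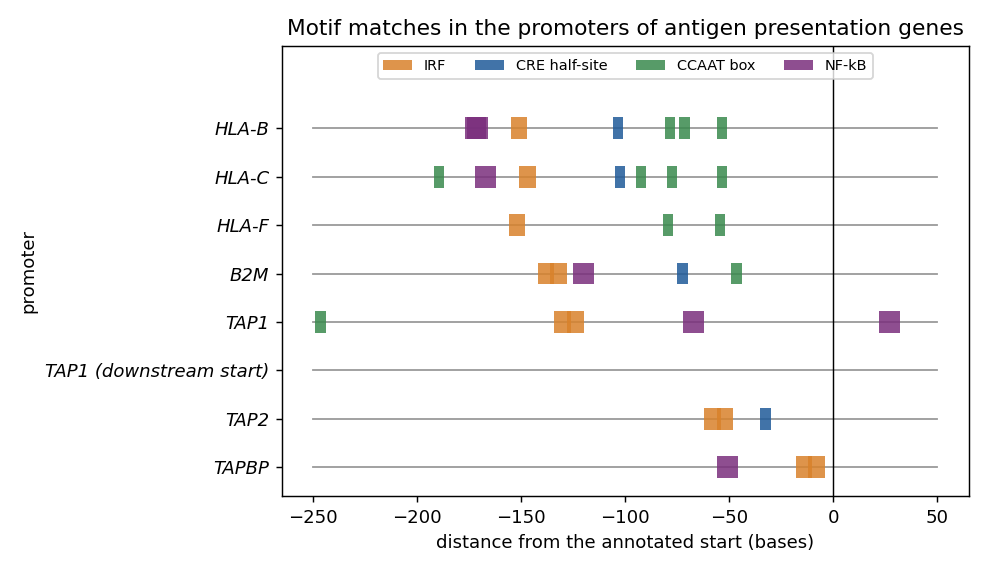
Motif matches in the 8 promoter entries of 7 members, drawn by distance from the annotated start in bases; each bar is as wide as its motif. IRF matches (orange) stand in 7 of the 8 entries, nearest to the start in TAPBP and farthest from it in HLA-F.

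Other proteins help to bring chains and peptides into the endoplasmic reticulum, to trim the peptides and to load them. Of 12 genes of such loading and trimming partners, 11 had a log2 ratio below 0 (57.0% of all genes), with a median of -0.35. CANX, the chaperone calnexin that holds the new heavy chain, had 1794 CPM without and 1244 CPM with M2BPGi, a log2 ratio of -0.53. MOGS, the glucosidase that trims the first sugar of its glycan, had a log2 ratio of -0.50, and CALR, the chaperone calreticulin of the loading complex, had 1559 and 1280.1 CPM (-0.28). SEC61B, a subunit of the channel through which the chains enter the endoplasmic reticulum, went the other way with 481 and 528 CPM (0.13). Of 31 secretory pathway genes, 2 (SEC61A1 and SEC61B) are also among the loading partners. Of the other 29, 23 had a log2 ratio below 0 (57.0% of all genes), with a median of -0.17. The counting interval lay below 0 for 20 of them (31.5% of all genes) and above 0 for 3 (22.8% of all genes). LMAN1 (-0.49) and KDELR1 (-0.47), receptors for cargo and for retrieval, were the lowest, and SEC13 (0.34) and COPB1 (0.14), which build vesicle coats, were the highest.

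The proteasome makes the peptides for the transporter. The list held 6 of its subunits, and the 6 had a log2 ratio above 0, with a median of 0.24, as had 42.9% of all genes. Other subunits were not read here. PSMB6, a catalytic subunit, had 190 CPM without and 250.3 CPM with M2BPGi (0.40), and PSMA1 had 115 and 156 CPM (0.44). PSMB5 (0.13) and PSMA7 (0.04) were nearest 0. The immunoproteasome, which interferon gamma induces, was nearly without tags at its catalytic subunit PSMB8, with 0 CPM without and 0.08 CPM (2 tags) with M2BPGi. A count of 0 allows up to 0.125 CPM without and 0.121 CPM with M2BPGi, so no ratio was given for it. The other 4 genes of this list had a median of 0.10, with none below 0. PSMB10, another of its catalytic subunits, had 40.2 and 45.7 CPM (0.18), and the activator subunits PSME1 (0.11), PSME2 (0.06) and PSME3 (0.10) were near 0, with an interval of PSME2 that included 0. PSMB9 was not analysed here.

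Of 20 genes of factors that act at class I promoters, 13 (65.0%) had a log2 ratio below 0, near the 57.0% of all genes, with a median of -0.10. The counting interval lay below 0 for 9 of them (31.5% of all genes) and above 0 for 0 (22.8% of all genes). IRF1, an interferon-induced activator of class I genes, had 17.3 CPM without and 8.97 CPM with M2BPGi, a log2 ratio of -0.87 (interval -1.19 to -0.71). It was the lowest of the list. NFYA, which binds the CCAAT box as part of a trimer, had 19.3 and 13.3 CPM (-0.51), while its partner NFYB had a log2 ratio of 0.16. NFKB1, a subunit of NF-kB, had 20.6 and 22.1 CPM (0.10), and the intervals of NFYB and NFKB1 included 0.

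Of 12 genes of interferon receptors, their kinases and their inhibitors, 7 (58.3%) had a log2 ratio below 0, close to the 57.0% of all genes. The median of the 12 was -0.14, and the inhibitors among them were SOCS1, SOCS3, PTPN2 and USP18. IFNGR1, the ligand-binding chain of the interferon gamma receptor, had 60.1 and 48.1 CPM (-0.32), and IFNGR2, its signaling chain, had 51.1 and 60.6 CPM (0.24). USP18, a brake on the type I receptor, had a log2 ratio of -0.31 and IL10RB, a chain of the type III receptor, of 0.12, with an interval that included 0. The interval lay below 0 for 7 of the 12 genes (31.5% of all genes) and above 0 for 1 (22.8% of all genes). Of 30 interferon-stimulated genes, 25 had a log2 ratio below 0 (57.0% of all genes), with a median of -0.22. The interval lay below 0 for 19 of them (31.5% of all genes) and above 0 for 4 (22.8% of all genes). PARP14 had 27.2 and 15.3 CPM (-0.79) and DDX58, the RNA sensor RIG-I, had 44.0 and 27.3 CPM (-0.67). IFITM2, a membrane protein that restricts viral entry, had 62.2 and 80.9 CPM (0.37), and ADAR, which edits double-stranded RNA, had 68.8 and 74.4 CPM (0.11). The median of the 9 antigen presentation genes was further below 0 than that of the interferon-stimulated genes and near that of the loading partners, and these differences were not tested.

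**Figure D5:**
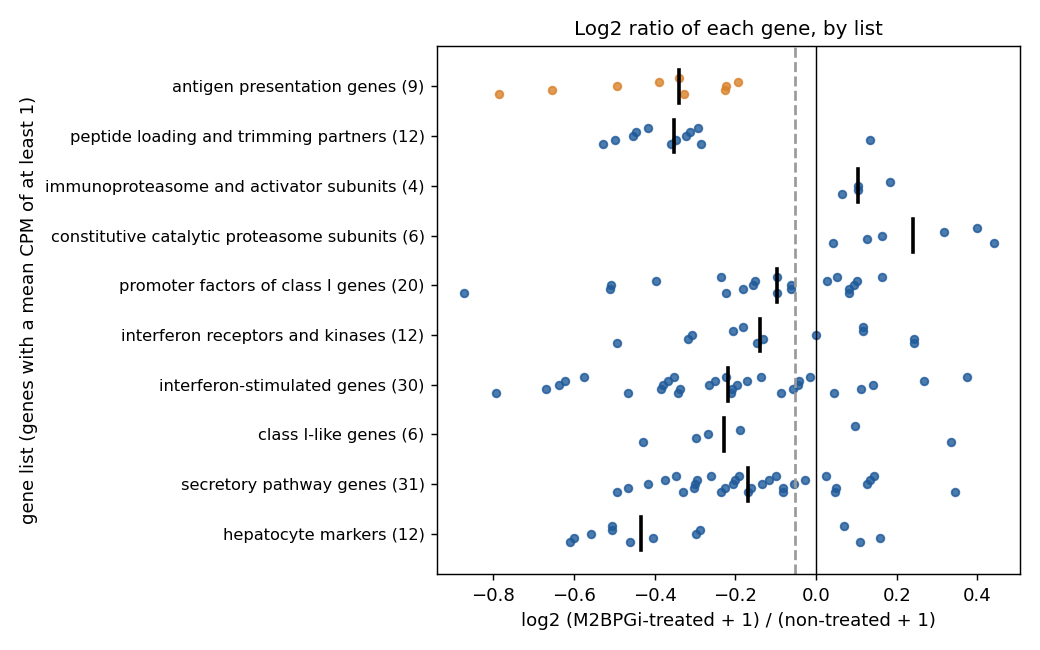
Log2 ratio with 1 CPM added of each gene at a mean of 1 CPM or more, by list, with the number of genes in parentheses and a black bar at the median. The median is -0.34 for the antigen presentation genes, -0.35 for the loading partners and 0.24 for the constitutive proteasome subunits; the dashed line is the median of all genes (-0.05).

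Genes related to class I by structure were read beside the members. Of 6 class I-like genes at a mean of 1 CPM or more, 4 (66.7%) had a log2 ratio below 0, near the 57.0% of all genes, with a median of -0.23. HFE, which regulates iron uptake and pairs with the light chain, had 25.7 and 18.9 CPM (-0.43), MICA, a stress ligand of natural killer cells, had 140 and 113 CPM (-0.30), FCGRT, the Fc receptor that also pairs with the light chain, had a log2 ratio of -0.27 and MICB of -0.19. The stress ligands ULBP1 (5.12 and 6.72 CPM, 0.34, interval 0.05 to 0.74) and ULBP2 (3.62 and 3.94 CPM, 0.10, interval -0.31 to 0.56) had ratios above 0. PROCR was listed at 0 in both libraries. HLA-DMA (29.7 and 23.0 CPM, -0.35) and HLA-DMB (44.9 and 32.6 CPM, -0.45), which load peptides on class II molecules, were the class II genes above a mean of 1 CPM, of 3 analysed. CD74, the class II invariant chain, had 0.75 and 0.56 CPM.

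Apart from B2M and NLRC5, the members lie in the MHC stretch of chromosome 6. In the gene order of GENCODE v29, 100 other genes at a mean of 1 CPM or more lie between HLA-F and TAPBP. Their median log2 ratio was -0.16, with 68 below 0 (57.0% of all genes) and 32 above it. The 589 genes on the rest of chromosome 6 had a median of -0.03, with 315 below 0. The 7 members inside the stretch had log2 ratios from -0.79 to -0.22.

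Markers of the cell type were read beside these values. Of 13 hepatocyte markers, 12 were analysed, and their summed level was 4072 CPM without and 2988 CPM with M2BPGi. The most abundant was the fibrinogen gene FGG with 1402 and 986.6 CPM. AFP, a fetal liver protein made by many hepatomas, had 695 and 566 CPM, and ALB, the main product of mature hepatocytes, had 8.82 and 7.04 CPM. Their median log2 ratio was -0.43, with 9 of 12 below 0 (57.0% of all genes), from FGB (-0.61) and SERPINA1 (-0.56) to APOA2 (0.11) and HNF4A (0.16). Their part in the lower values of the antigen presentation genes was not tested. Of 15 leukocyte markers, 5 were analysed, with a summed level of 53.2 and 49.7 CPM, the most abundant being LYZ with 32.1 and 29.2 CPM. CD68, a macrophage marker of this list, had 21.2 CPM without and 20.5 CPM with M2BPGi. PTPRC, ITGAM and CSF1R were at 0 in both libraries. Of 11 stromal and endothelial markers, 2 were analysed, the most abundant being COL3A1 with 4.53 and 3.42 CPM, beside COL1A1 with 0.67 and 0.76 CPM.

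Copies can make the assignment of tags uncertain. In GENCODE v29, 4 of the 9 members matched another gene with at least 95% identity over at least 100 nt of the first 500 nt of a transcript, and 5 matched none. For TAP2 this was only the overlapping locus that holds it. HLA-C matched HLA-B over up to 160 nt, HLA-F matched 2 genes, HLA-C among them, over up to 254 nt, and TAP1 matched 1 gene over 101 nt. HLA-B had no match by its own first 500 nt, and its locus overlaps HLA-C on the same strand in that annotation. HLA genes are also highly polymorphic, and how the alleles of PLC/PRF/5 affect the mapping of their tags was not tested. B2M, TAPBP and NLRC5 had no such copy and do not belong to the polymorphic heavy chains, and their log2 ratios were -0.19, -0.23 and -0.65.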

How the data were processed

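PLC/PRF/5 cells gave 1 non-treated and 1 M2BPGi-treated CAGE library. The authors removed ribosomal tags, mapped those left, and deposited CPM for each gene with 2 decimals. The methods name BWA and a mouse genome, the submitters' processing notes name BWA, HISAT2 and hg19, and the identifiers are human. How tags that match several places were assigned is not given in the sources used here. GENCODE v29 and RefSeq (GRCh38) served only for gene order, copies and promoters.

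From the CPM, tag numbers were recovered. Of values above 0, 99.98% and 99.97% lay within the rounding of a whole number of tags (1 tag being 0.0416 and 0.0402 CPM). Of values up to 20 tags, 87.6% and 94.1% lay within 0.1 tag of one. Too few low values of the non-treated library met the check within 0.1 tag that was set for the planned test. The planned test of the tags and the trimmed-mean normalization were therefore not run, and tag numbers serve for intervals and ratios of tags alone. The ratios and intervals were checked on simulated data.

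Members and lists were chosen with earlier results of these data known. Named are the 2 highest and 2 lowest log2 ratios of each list among genes at a mean of 10 CPM or more, and the 3 genes nearest in level to B2M and HLA-C. A gene selected this way is not reported here. Of marker lists, the most abundant gene and those at 0 are named as well. Where a symbol on a list had several identifiers, the most abundant was used. Other names, the MHC stretch and the motifs were chosen after values were seen. Alternatives were other pseudocounts, filters, fold thresholds and scalings. Summing both TAP2 identifiers and leaving out shared secretory genes were added after values were seen. Python 3.11.15, scipy 1.17.1 and BLAST 2.17.0 were used.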

Additional observations from a re-analysis of the deposited data

How the results depend on the processing

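The median log2 ratio of the 9 antigen presentation genes stayed below 0 under each alternative run, from -0.36 with both TAP2 identifiers counted, an alternative chosen after the data were seen, to -0.29 with the libraries rescaled to a median log2 ratio of 0. The number of members at least 2-fold lower was 0 in each of these, and with a fold threshold of 1.5 it was 2. Among all genes, 59 were at least 2-fold lower and 33 higher. These counts were 162 and 53 with a pseudocount of 0.1 CPM, 21 and 18 with 5 CPM, 28 and 19 at a mean of 10 CPM or more, and 555 and 219 with a fold threshold of 1.5. Of 36 log2 ratios of single members under other settings, 33 lay inside the counting interval, 3 lay outside it (NLRC5 with a pseudocount of 5 CPM at -0.28, and HLA-C at -0.28 and B2M at -0.14 after rescaling) and 0 changed sign. The cause was not tested. Another pseudocount cannot turn the sign of a ratio, and the scalings shifted the members only a little. The kept signs, and a median that stayed below 0, were therefore fixed in advance for the pseudocounts. The counting interval covers counting error and does not measure the effect of a scaling. The test of the tags and the trimmed-mean normalization were not run. No paired analysis was possible because a condition holds a single library. Depth limits genes with few tags, such as NLRC5 and PSMB8.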
